A study of Mus musculus with 9 samples.

Results

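The growth arrest and cell death arm of the p53 response was followed in mouse liver through 10 of its target genes, Cdkn1a, Mdm2, Ccng1, Btg2, Trp53inp1, Bax, Phlda3, Eda2r, Zmat3 and Tnfrsf10b. The genes were taken by symbol from a count matrix of 24411 genes, and all 10 were present. Poly(A) RNA was sequenced from 9 livers of mice of the C57BL/6 background at 3 months of age, 3 livers in each of 3 genotypes. All mice carried floxed Atg7 on both alleles (Atg7 flox/flox). Mice without Cre served as controls (cont.). Atg7-KO mice also carried Alb-Cre, which is driven by the albumin promoter, a promoter active in hepatocytes. The third group, called S351A here, had in addition to floxed Atg7 and Alb-Cre the p62 S351A allele on both copies of p62 (Sqstm1), in which an alanine replaces a serine. p62 is the autophagy receptor that holds KEAP1 in p62 bodies. The genotype entry names the second p62 allele as S352A in replicate 2 and as S353A in replicate 3, whereas the titles of all 3 give S351A on both alleles. The titles were followed. They number the mice, so each library was taken as a separate animal.

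Libraries held 1875325 to 15426575 counts in cont., 1945483 to 3675058 in Atg7-KO and 713841 to 792372 in S351A. Every S351A library was smaller than every other library, so depth and the p62 mutation cannot be told apart. Levels are given as CPM (counts relative to library size) on the scale of TMM factors, which corrects library sizes for composition, and 3 counts in a library were taken as its floor, at 0.267 to 1.89 CPM in the controls, 0.691 to 1.36 CPM in Atg7-KO and 3.42 to 3.70 CPM in S351A. Atg7 itself was at 48.1 ± 8.13 CPM in cont., 28.6 ± 1.15 CPM with Cre and 22.8 ± 1.62 CPM with Cre and the p62 allele (SD, n = 3 each), lower in both Cre groups (log2 fold change -0.74, quasi-likelihood test of edgeR, Benjamini-Hochberg adjusted p = 0.00757, and -1.07, adjusted p = 0.00318). Albumin and 4 other hepatocyte markers of 6 tested were called lower in both Cre groups, against 18.1% of all genes tested in Atg7-KO and 13% in S351A. No marker was at 0. In a bulk liver sample, fewer cells of a type and less RNA per cell cannot be told apart.

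p53 is a transcription factor that MDM2 keeps scarce in unstressed cells by marking it for degradation. Damage and other stresses free it, and it then switches on inhibitors of the cell cycle, among them Cdkn1a, genes that feed back on p53, among them Mdm2 and Ccng1, and genes of apoptosis, among them Bax and the death receptor gene Tnfrsf10b. In the liver p53 is best known for holding back the division of damaged hepatocytes. It binds pairs of a short consensus decamer in the regulatory DNA of its targets, and the promoters of the 10 genes were searched for that decamer, which reads the same on both strands. RefSeq start sites on GRCm38.p6 gave a window of 250 bases before the start for 7 of the 10 genes (8 windows, with 2 for Cdkn1a). Trp53inp1, Zmat3 and Tnfrsf10b had no window. At least 1 match was present in 4 of the 7 genes (57.1%), compared with 7.31% of 8575 tested genes with a window and 7.13% of all 32851 windows. The 4 windows with a match are printed 5′ to 3′ on the strand of the gene, ending at the base before the start, with each match in capitals. They lie at chr17:29090729-29090978 (Cdkn1a, + strand), chr10:117710759-117711008 (Mdm2, - strand), chr11:40755287-40755536 (Ccng1, - strand) and chr7:45466899-45467148 (Bax, - strand).
Cdkn1a: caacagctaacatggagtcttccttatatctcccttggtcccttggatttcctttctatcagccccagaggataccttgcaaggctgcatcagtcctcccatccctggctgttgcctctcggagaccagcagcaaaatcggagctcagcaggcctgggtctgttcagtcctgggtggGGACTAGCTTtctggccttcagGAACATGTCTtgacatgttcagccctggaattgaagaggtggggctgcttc
Mdm2: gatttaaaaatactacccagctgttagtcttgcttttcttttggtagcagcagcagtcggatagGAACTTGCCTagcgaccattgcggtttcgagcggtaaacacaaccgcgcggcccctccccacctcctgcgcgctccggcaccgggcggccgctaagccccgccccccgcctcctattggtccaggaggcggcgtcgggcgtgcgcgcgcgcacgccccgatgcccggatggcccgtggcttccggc
Ccng1: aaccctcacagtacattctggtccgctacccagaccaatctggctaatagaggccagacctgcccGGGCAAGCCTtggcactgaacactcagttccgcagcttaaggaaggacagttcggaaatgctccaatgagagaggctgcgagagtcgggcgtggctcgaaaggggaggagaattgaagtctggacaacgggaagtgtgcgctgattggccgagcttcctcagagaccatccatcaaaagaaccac
Bax: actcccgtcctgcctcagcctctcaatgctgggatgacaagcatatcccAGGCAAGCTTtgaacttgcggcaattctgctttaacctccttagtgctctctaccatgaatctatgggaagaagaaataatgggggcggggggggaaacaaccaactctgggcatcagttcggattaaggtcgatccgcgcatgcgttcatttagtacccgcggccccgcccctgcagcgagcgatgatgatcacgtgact

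In the Cdkn1a window the matches GGACTAGCTT and GAACATGTCT began at -73 and -51, counted from the start. The match began at -186 in Mdm2 (GAACTTGCCT), at -185 in Ccng1 (GGGCAAGCCT) and at -201 in Bax (AGGCAAGCTT). No match was found in the windows of Btg2, Phlda3 and Eda2r or in the second window of Cdkn1a, which says only that these letters are not there. A match is a description of the sequence, and binding of p53 was not measured.

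The comparison of Atg7-KO with cont. asked how these genes stand in a liver whose hepatocytes have lost autophagy. A gene was called when its p in the quasi-likelihood test of edgeR, after Benjamini-Hochberg adjustment over 11199 genes, was under 0.05 and its fold change over 1.5. In Atg7-KO, 9 of the 10 genes were called higher and 0 lower, where 19.9% of all genes tested were called higher and 18.1% lower. For the same 9 genes every Atg7-KO library was above every cont. library, which held for 26.7% of all genes, with 24.9% separated in the other direction. Mdm2 was the gene that was not called. The count of 9 fell to 5 when cont. replicate 1, Atg7-KO replicate 2 or Atg7-KO replicate 3 was left out. The median log2 fold change of the 10 genes was 1.74, against -0.03 over all genes tested. These summaries lend no support of their own, since 6 of the 10 genes passed the filter on low counts (5.14 CPM of the library total in at least 3 libraries) only through libraries of the Cre groups. Of the 4 that passed in cont. alone (Mdm2, Ccng1, Trp53inp1 and Bax), 3 were called higher.

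**Figure D1:**
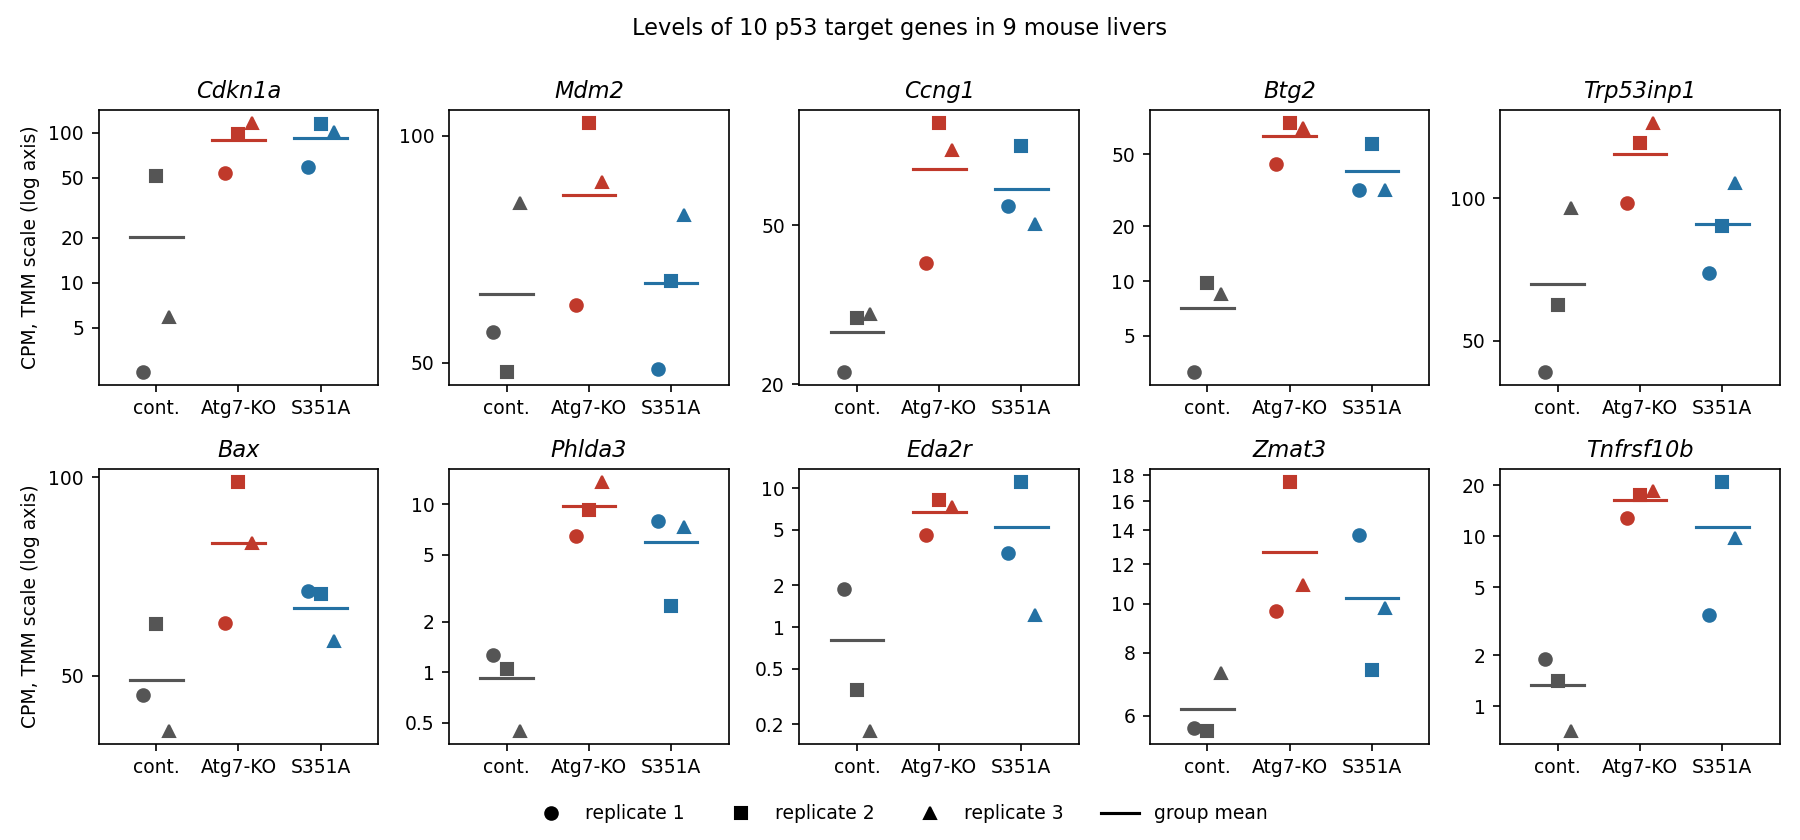
Level of each of the 10 genes in the 9 livers, in CPM on the TMM scale with a log axis that differs between panels. Points are livers, with the marker showing the replicate number, and bars are group means. Atg7-KO lies above cont. without overlap in every panel but that of Mdm2, and cont. replicate 2 of Cdkn1a, at 51.7 CPM, lies next to the lowest Atg7-KO liver at 53.7 CPM.

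Among the genes of growth arrest, Cdkn1a encodes p21, the inhibitor of cyclin-dependent kinases that carries out most of the p53 arrest in G1. Its gene (mm10, chromosome 17, 29090976 to 29100727, + strand) overlaps a gene model on the other strand, and the strand setting of the counting is not given in the sources used here. Its level was 2.53, 51.7 and 5.87 CPM in cont. replicates 1 to 3, 53.7, 98.4 and 117 CPM in Atg7-KO, and 59.3, 115 and 102 CPM in S351A. All 6 Cre libraries were above all 3 controls, but the controls varied widely, and replicate 2 stood far above the others and just under the lowest Cre library. The difference from cont. was 4.46-fold in Atg7-KO (log2 fold change 2.16, SE 0.72, quasi-likelihood test of edgeR, Benjamini-Hochberg adjusted p = 0.0319) and 4.59-fold in S351A (2.20, SE 0.74, adjusted p = 0.0434). Without cont. replicate 2 the log2 fold changes were 4.14 and 4.17. The adjusted p ranged from 5.77e-06 to 0.0978 over 18 alternatives for Atg7-KO, and the call was lost by DESeq2 (log2 fold change 2.17, adjusted p = 0.0748), with the 6 compared libraries alone (2.21), without cont. replicate 1 (log2 fold change 1.71) or 3 (1.60) and without Atg7-KO replicate 2 (2.08) or 3 (1.91). It ranged from 1.81e-05 to 0.138 for S351A, where DESeq2 (2.21), the 6 compared libraries alone (2.27) and leaving out any library but cont. replicate 2 lost the call, at log2 fold changes of 1.64 to 2.43.

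Btg2 encodes an antiproliferative protein that brings the deadenylase complex to messenger RNAs. The gene on the - strand of chromosome 1 (134075170 to 134079120) had levels of 3.16, 9.79 and 8.45 CPM in cont. livers, 44.2, 74.5 and 70.0 CPM in Atg7-KO livers, and 31.9, 56.7 and 31.9 CPM in S351A livers. No Cre library came near the range of the controls. Btg2 rose 8.09-fold in Atg7-KO (log2 fold change 3.02, SE 0.34, quasi-likelihood test of edgeR, Benjamini-Hochberg adjusted p = 4.63e-05) and 5.18-fold in S351A (2.37, SE 0.37, adjusted p = 7.16e-04). It was called in both comparisons under all 18 alternatives, with log2 fold changes of 2.78 to 3.65 in Atg7-KO and 2.02 to 2.97 in S351A.

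Ccng1 encodes cyclin G1, an atypical cyclin that feeds back on p53 through MDM2 (chromosome 11, 40748552 to 40755311, - strand). Its level was 21.5, 29.4 and 30.1 CPM in cont. livers, 40.3, 90.2 and 77.2 CPM in Atg7-KO livers, and 55.9, 78.9 and 50.2 CPM in S351A livers. Again no Cre library reached down to the controls, although Atg7-KO replicate 1 was well under the other 2 of its group. Ccng1 rose 2.51-fold in Atg7-KO (log2 fold change 1.33, SE 0.29, quasi-likelihood test of edgeR, Benjamini-Hochberg adjusted p = 0.00351), a call kept under all 18 alternatives. It rose 2.25-fold in S351A (1.17, SE 0.31, adjusted p = 0.0141, range over alternatives 0.00121 to 0.0827), and that call was lost without S351A replicate 2 (log2 fold change 0.93).

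Trp53inp1 encodes a stress protein that acts with p53 in arrest and death (chromosome 4, 11156431 to 11174379, + strand). It was at 42.9, 59.4 and 95.4 CPM in cont. livers, at 97.9, 131 and 144 CPM in Atg7-KO livers, and at 69.6, 87.5 and 108 CPM in S351A livers. The highest control lay just under the lowest Atg7-KO library, and the S351A libraries overlapped both other groups. The gene rose 1.85-fold in Atg7-KO (log2 fold change 0.89, SE 0.29, quasi-likelihood test of edgeR, Benjamini-Hochberg adjusted p = 0.0272) and was not called in S351A (0.40, adjusted p = 0.343). The Atg7-KO call was lost with sex as a covariate (0.78) and without cont. replicate 1 (0.65) or 2 (0.79) or Atg7-KO replicate 2 (0.85) or 3 (0.76), with an adjusted p of 0.00101 to 0.110 over the alternatives. With total library size in place of TMM, S351A was also called higher (0.91, adjusted p = 0.0238, range 0.0238 to 0.715).

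Mdm2 encodes the ubiquitin ligase that degrades p53 and is itself a p53 target, the core of the negative feedback (chromosome 10, 117688875 to 117710758, - strand). Its level was 54.9, 48.6 and 81.6 CPM in cont. livers, 59.7, 104 and 86.8 CPM in Atg7-KO livers, and 49.0, 64.1 and 78.4 CPM in S351A livers. The 3 groups overlapped throughout. The change was 0.42 on the log2 scale in Atg7-KO (SE 0.27, 95% interval -0.16 to 1.00, quasi-likelihood test of edgeR, Benjamini-Hochberg adjusted p = 0.238) and 0.03 in S351A (interval -0.58 to 0.65, adjusted p = 0.946). With total library size, which moved the median of all genes by 0.54 in Atg7-KO, Mdm2 was called higher there (0.96, adjusted p = 0.00854, range over alternatives 0.00854 to 0.622).

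Phlda3 encodes a protein with a pleckstrin homology domain that competes with AKT for membrane lipids and so lowers survival signalling. It lies on chromosome 1 from 135766119 to 135769136 on the + strand, 1.69 Mb from Btg2. It had 2, 3 and 5 counts in cont. (1.26, 1.05 and 0.445 CPM), 28, 26 and 30 counts in Atg7-KO (6.45, 9.27 and 13.6 CPM), and 7, 2 and 6 counts in S351A (7.98, 2.47 and 7.35 CPM). No Cre library fell into the range of the controls, of which 2 were at their floor, as was S351A replicate 2. The ratio of summed counts to cont., scaled by library size, was 14.1 in Atg7-KO (95% interval from counting error alone 7.30 to 30.5) and 9.40 in S351A (3.95 to 23.4). The fitted log2 fold changes of 3.70 (SE 0.55, quasi-likelihood test of edgeR, Benjamini-Hochberg adjusted p = 2.84e-04) and 3.02 (SE 0.67, adjusted p = 0.00570) depend on the prior count at these levels. Both calls were kept under every alternative in which the gene was tested, at 3.00 and 2.33 without cont. replicate 3, the deepest library.

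Zmat3 encodes a zinc finger protein that binds RNA and regulates splicing and messenger stability downstream of p53 (chromosome 3, 32334792 to 32366014, - strand). Its level was 5.68, 5.59 and 7.29 CPM in cont. livers, 9.67, 17.5 and 10.9 CPM in Atg7-KO livers, and 13.7, 7.40 and 9.80 CPM in S351A livers. Both Cre groups lay above the controls, S351A replicate 2 by the smallest margin. Zmat3 rose 1.97-fold in Atg7-KO (log2 fold change 0.98, SE 0.32, quasi-likelihood test of edgeR, Benjamini-Hochberg adjusted p = 0.0296, range over alternatives 0.00184 to 0.176). That call was lost without cont. replicate 1 (0.90) or 2 (0.88) and without Atg7-KO replicate 2 (0.68) or 3 (1.06). In S351A the log2 difference of 0.69 was not called (adjusted p = 0.199), except with total library size (1.20, adjusted p = 0.0268, range 0.0268 to 0.574).

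Of the genes of cell death, Bax encodes the protein that opens the outer mitochondrial membrane (chromosome 7, 45461697 to 45466898, - strand). It overlaps the gene model Gm45808 on the same strand, so reads may have been split between them. Its level was 46.7, 59.8 and 41.2 CPM in cont. livers, 60.1, 98.4 and 79.5 CPM in Atg7-KO livers, and 67.3, 66.6 and 56.4 CPM in S351A livers. Atg7-KO lay just above the highest control, and S351A replicate 3 lay below it. Bax rose 1.61-fold in Atg7-KO (log2 fold change 0.69, SE 0.22, quasi-likelihood test of edgeR, Benjamini-Hochberg adjusted p = 0.0280) and was not called in S351A (0.37, adjusted p = 0.263). The Atg7-KO call was lost with sex as a covariate (0.58) and without cont. replicate 1 (0.64) or 3 (0.56) or Atg7-KO replicate 2 (0.50) or 3 (0.68), with an adjusted p of 0.00117 to 0.149 over the alternatives. With total library size, S351A was called higher (0.85, adjusted p = 0.0180, range 0.0180 to 0.544).

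Tnfrsf10b encodes the mouse death receptor for the ligand TRAIL (chromosome 14, 69767472 to 69784411, + strand). It had 3, 4 and 8 counts in cont. (1.89, 1.40 and 0.712 CPM), 56, 49 and 41 counts in Atg7-KO (12.9, 17.5 and 18.6 CPM), and 3, 17 and 8 counts in S351A (3.42, 21.0 and 9.80 CPM). The Atg7-KO libraries lay close together far above the controls, while the S351A libraries were spread widely, with replicate 1 at its floor. The ratio of summed counts to cont. was 16.3 in Atg7-KO (95% counting interval 9.58 to 29.9) and 11.7 in S351A (6.04 to 23.6). The fitted log2 fold changes were 3.90 (SE 0.54, quasi-likelihood test of edgeR, Benjamini-Hochberg adjusted p = 1.79e-04) and 3.38 (SE 0.63, adjusted p = 0.00213), and both calls were kept under every alternative that tested the gene. Without cont. replicate 3 they were 3.29 and 2.77, after thinning to the smallest library total 4.56 and 4.04, and the S351A value was 2.57 without S351A replicate 2.

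Eda2r encodes the receptor for ectodysplasin A2, another member of the tumour necrosis factor receptor family (chromosome X, 97333840 to 97377216, - strand). It had 3, 1 and 2 counts in cont. (1.89, 0.350 and 0.178 CPM), 20, 23 and 16 counts in Atg7-KO (4.61, 8.20 and 7.27 CPM), and 3, 9 and 1 counts in S351A (3.42, 11.1 and 1.23 CPM). All 3 controls and 2 of the S351A libraries were at their floors, and S351A overlapped cont. while Atg7-KO did not. The ratio of summed counts to cont. was 16.5 in Atg7-KO (95% counting interval 7.15 to 46.8) and 13.6 in S351A (4.81 to 43.6). Eda2r was called higher in Atg7-KO (fitted log2 fold change 3.79, SE 0.78, quasi-likelihood test of edgeR, Benjamini-Hochberg adjusted p = 0.00229) and in S351A (3.46, SE 0.94, adjusted p = 0.0163, range over alternatives 0.00150 to 0.197). The S351A call was lost without S351A replicate 2 (2.29) and without cont. replicate 3 (2.40), and its value was 4.33 without cont. replicate 1. In Atg7-KO leaving out cont. replicate 3 gave 2.73 and leaving out cont. replicate 1 gave 4.67.

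**Figure D2:**
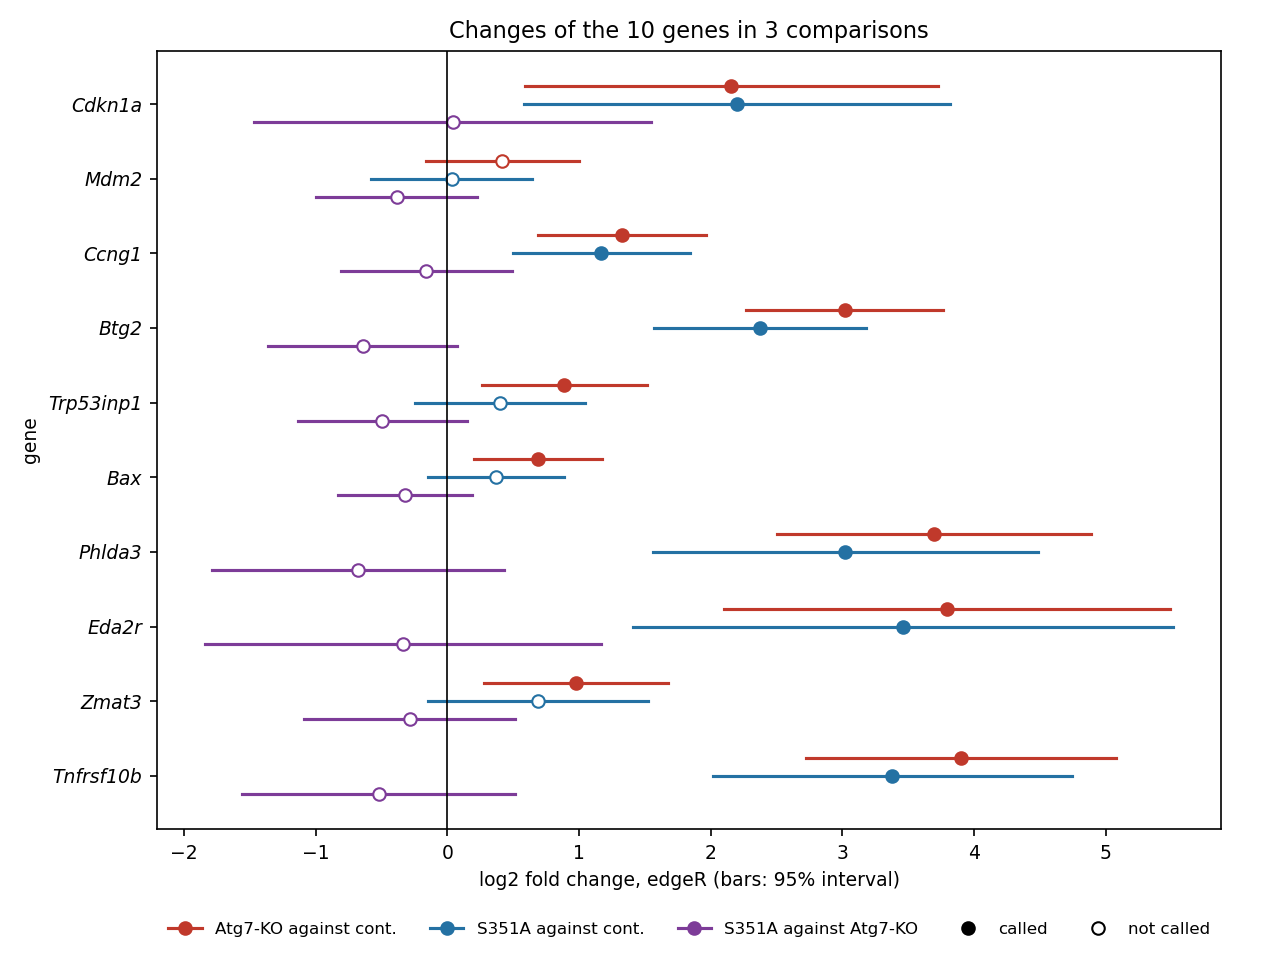
Log2 fold change of each gene with its 95% interval from edgeR's quasi-likelihood fit in 3 comparisons, filled where called. In Atg7-KO against cont. 9 points are filled and in S351A against cont. 6, and every interval of S351A against Atg7-KO includes 0.

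In S351A livers the comparison with cont. asked whether the same genes stand higher when p62 also carries the mutation that weakens its hold on KEAP1. Here 6 of the 10 genes were called higher (Cdkn1a, Ccng1, Btg2, Phlda3, Eda2r and Tnfrsf10b) and 0 lower, against 15.6% and 13% of all genes tested. Every S351A library was above every cont. library for 6 genes, with Zmat3 in the place of Eda2r, where this held for 19.6% of all genes and the reverse for 18.4%. The median log2 fold change of the 10 genes was 1.68, against -0.03 over all genes. Of the 4 genes that passed the filter in cont. alone, 1 was called (Ccng1). The other called genes passed it only through libraries of the Cre groups. The count of 6 fell to 3 without S351A replicate 2, and to 2 of 7 genes tested with the 6 compared libraries alone. The S351A and Atg7-KO comparisons use the same cont. libraries, so their counts are not independent.

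Between S351A and Atg7-KO the p62 allele differed, and so did library depth, and these cannot be told apart. By edgeR's quasi-likelihood test 0 of the 10 genes were called in either direction, 0 had an unadjusted p under 0.05, and 0 were called by DESeq2, by limma-voom or under any other alternative. Over all genes tested, 0% were called higher, 0.00893% lower (1 gene), and 6.6% had an unadjusted p under 0.05. The libraries of both groups overlapped for all 10 genes, where 7.67% of all genes had every S351A library above and 9.23% every S351A library below. The difference was negative for 9 of the 10 genes, with a median of -0.36 on the log2 scale against 0.01 over all genes, and the S351A mean lay between those of cont. and Atg7-KO for the same 9. Leaving out Atg7-KO replicate 2 brought that median to -0.18, and leaving out replicate 1 of the same group brought it to -0.58. Cdkn1a, at 0.04 (95% interval -1.46 to 1.55), was the exception, and its sign changed with total library size (-0.0046). Leaving out 1 library turned Ccng1 (to 0.075), Zmat3 (to 0.0099) and Eda2r (to 0.12) positive. The intervals show what these libraries could not resolve. Btg2 was at -0.64 (interval -1.36 to 0.07), Phlda3 at -0.67 (-1.78 to 0.43), Tnfrsf10b at -0.52 (-1.56 to 0.52) and Trp53inp1 at -0.49 (-1.14 to 0.15). Leaving out S351A replicate 1 brought Tnfrsf10b to -0.076, and leaving out replicate 2 brought it to -1.30. Mdm2 was at -0.38 (-1.00 to 0.23), Eda2r at -0.33 (-1.84 to 1.17), Bax at -0.32 (-0.83 to 0.19), Zmat3 at -0.28 (-1.09 to 0.52) and Ccng1 at -0.16 (-0.81 to 0.49). Benjamini-Hochberg adjusted p-values of the edgeR test ran from 0.816 to 0.996, and intervals this wide do not show that the groups are alike.

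The 10 genes varied between livers of a group. The median over the genes of log2 CPM relative to the cont. mean was -0.12, 0.11 and -0.03 in the cont. livers, 1.34, 2.21 and 2.07 in Atg7-KO, and 1.08, 1.28 and 0.84 in S351A. Atg7-KO replicate 1 was the lowest of its group for all 10 genes, with replicate 2 the highest for 6 and replicate 3 for 4. In S351A no library held one end so evenly, since replicates 1, 2 and 3 were the lowest for 4, 2 and 4 genes. The group means of this median were 1.87 ± 0.47 for Atg7-KO and 1.07 ± 0.22 for S351A (SD, n = 3), given as a description with no test. Taken gene by gene, the median log2 fold changes against cont. were closer, at 1.74 and 1.68. The median difference of S351A from Atg7-KO was -0.36, and the libraries of these groups overlapped for all 10 genes. The gap between the group means is thus not the change of a typical gene.

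**Figure D3:**
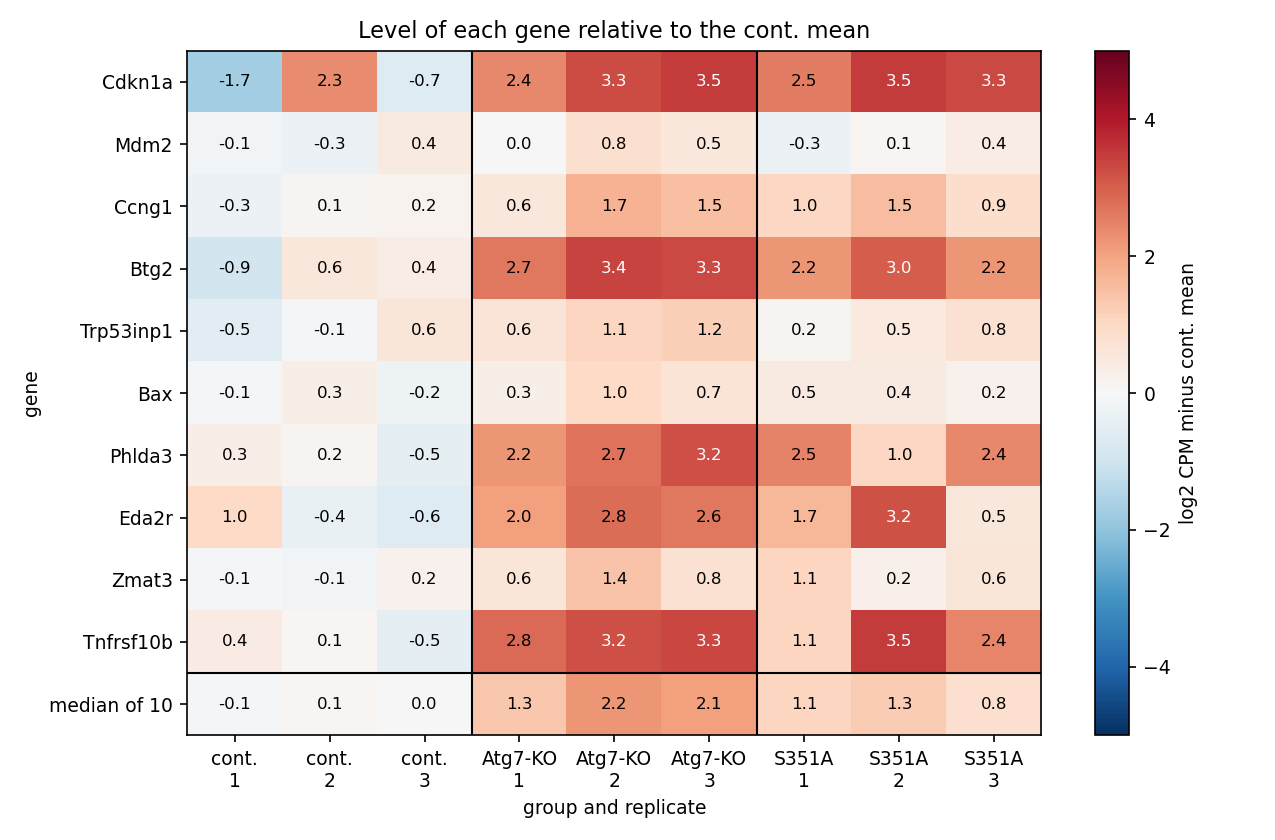
Log2 CPM of each gene in each of the 9 livers minus the cont. mean of that gene, with the median over the 10 genes in the bottom row. Cdkn1a in cont. replicate 2 stands at 2.3, near Atg7-KO replicate 1 at 2.4, and Atg7-KO replicate 1 is the palest column of its group, with a median of 1.34.

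Levels can be ordered between genes once divided by the length of all annotated exons. In cont. Bax was highest at 31.2 CPM per kb, followed by Mdm2 at 12.1, Trp53inp1 at 10.2, Ccng1 at 7.68 and Cdkn1a at 5.64, of which each overlapped the next from Mdm2 on. Btg2 followed at 2.60 CPM per kb, and Phlda3, Zmat3, Tnfrsf10b and Eda2r were at 0.589, 0.541, 0.245 and 0.137. In Atg7-KO Bax stayed first at 50.3 CPM per kb, and Cdkn1a (25.2) and Btg2 (22.9) came next, above Ccng1 (19.7), Trp53inp1 (19.2) and Mdm2 (16.4), although these 5 overlapped each with the next. In S351A the same 6 genes led, with Bax at 40.2, Cdkn1a at 25.9 and Ccng1 at 17.6 CPM per kb. Eda2r and Zmat3 were the lowest pair in both Cre groups, at 1.14 and 1.11 CPM per kb in Atg7-KO and 0.891 and 0.900 in S351A.

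The other genes of the pathway were read from 6 lists, to be set against the 19.9% of all genes tested that were called higher and the 18.1% called lower in Atg7-KO, and the 15.6% and 13% in S351A. Of 10 tested genes that encode p53 or its regulators, Atg7-KO had 0 called higher and 2 lower, and 0 either way in S351A against cont. (in both cases by edgeR, and out of 15 listed). The count called lower in Atg7-KO is near the 18.1% of all genes. Trp53, which encodes p53, was at 26.1 ± 5.04 CPM in cont. livers, 29.8 ± 2.30 CPM in Atg7-KO livers and 19.3 ± 9.82 CPM in S351A livers (SD, n = 3 each), with a log2 difference of 0.17 in Atg7-KO (quasi-likelihood test of edgeR, Benjamini-Hochberg adjusted p = 0.652, range over alternatives 0.0408 to 0.977) and of -0.47 in S351A (adjusted p = 0.281, range 0.0268 to 0.930). Neither was called, but with total library size Trp53 was called higher in Atg7-KO (0.72), and without S351A replicate 3 it was called lower in S351A (-0.98). Mdm4, the partner of MDM2 that masks p53, was at 164 ± 18.5, 104 ± 12.7 and 115 ± 37.9 CPM and fell by 0.65 on the log2 scale in Atg7-KO (adjusted p = 0.0491, range over alternatives 0.0231 to 0.741). Sirt1, a deacetylase of p53, had a log2 fold change of -1.07 (adjusted p = 0.0416, range 0.00819 to 0.339). Of the 18 alternatives, 10 lost the Mdm4 call, at -0.11 with total library size and at -0.72 to -0.56 in the other 9. The Sirt1 call was lost under 9, at -0.50 with total library size, -0.71 after thinning, -0.58 without cont. replicate 3 (26.95 CPM, against 11.4 and 14.3 in the other cont. livers) and -1.23 to -0.94 in the other 6. In S351A against cont. Sirt1 was at -1.13 (adjusted p = 0.0882, range 0.0220 to 0.324). It was called lower with the replicate block (-1.06), without the filter (-1.24), and without cont. replicate 1 (-1.35) or S351A replicate 3 (-1.65). Cdkn2a, whose product ARF restrains MDM2, had 0, 5 and 3 counts in all in the 3 groups and was not tested.

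Of the other p53 targets of arrest, repair and metabolism, 7 of 19 tested were called higher in Atg7-KO (Plk2, Aen, Sfn, Gdf15, Psrc1, Gtse1 and Ak1) and 0 lower, with a median log2 fold change of 0.45. In S351A 4 were called higher (Aen, Sfn, Psrc1 and Ak1) and 0 lower, a count higher that is not far from the 15.6% of all genes. Sfn, which encodes the 14-3-3 sigma protein of the G2 checkpoint, averaged 2.69 CPM in cont., against 21.2 in Atg7-KO and 13.2 in S351A (log2 fold change 2.88, quasi-likelihood test of edgeR, Benjamini-Hochberg adjusted p = 3.53e-05, and 2.19, adjusted p = 0.00120). Aen, an apoptosis-enhancing nuclease, went from 30.6 to 61.6 and 60.0 CPM (1.03, adjusted p = 0.00295, and 1.00, adjusted p = 0.00768). Psrc1, a spindle protein, was at 0 CPM in cont. replicates 1 and 2 and had 6 counts in cont. replicate 3, and rose by a fitted 4.71 in Atg7-KO (adjusted p = 3.24e-04), a value that depends on the prior count at such levels. Gadd45a, a classic damage-response target, was not called (0.21, adjusted p = 0.678).

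Of 9 tested targets of cell death, 1 was called higher in Atg7-KO, Apaf1, the scaffold of the apoptosome, and 0 in S351A, with a median of -0.18 in Atg7-KO. With 9 genes, such counts cannot be set apart from the 19.9% and 15.6% of all genes called higher. Bbc3, which encodes the killer protein PUMA, was at 0.13 (quasi-likelihood test of edgeR, Benjamini-Hochberg adjusted p = 0.775) and the death receptor gene Fas at -0.18 (adjusted p = 0.551). Pmaip1, which encodes NOXA, had 8, 24 and 2 counts in all in the 3 groups and was not tested. Among the partners of BAX and of the 2 death receptors, 7 of 13 tested were called higher in Atg7-KO (Bak1, Bcl2, Bcl2l1, Mcl1, Bcl2l11, Bok and Tnfsf10) and 1 lower (Cflar), and in S351A 5 higher and 0 lower. They include both killers (Bak1, Bcl2l11) and guardians (Bcl2, Bcl2l1, Mcl1) of mitochondria. Bcl2 had a mean of 6.23 CPM in cont., against 39.0 in Atg7-KO and 39.7 in S351A (2.74, adjusted p = 3.50e-04, and 2.77, adjusted p = 9.08e-04). Tnfsf10, which encodes TRAIL, the ligand of the receptor from Tnfrsf10b, went from a mean of 3.31 CPM in cont. livers to 13.0 with Cre and 16.4 with the p62 allele (1.86, adjusted p = 9.58e-04, and 2.17, adjusted p = 0.00126). Cflar, which encodes FLIP, a decoy for the initiator caspase of these receptors, had a mean of 119 CPM in cont. livers and of 65.3 CPM in Atg7-KO livers (-0.86, adjusted p = 0.0117, range over alternatives 0.00407 to 0.295), a call lost with total library size and after thinning to the smallest library total. In S351A against cont. Cflar was at -0.68 (adjusted p = 0.0511, range 0.0221 to 0.547). It was called lower with the replicate block, also at -0.68, and without the filter (-0.78). Leaving out cont. replicate 2 (-0.81), cont. replicate 3 (-0.81) or S351A replicate 1 (-0.88) gave that call too.

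Of 13 tested other inhibitors of the cell cycle, 2 were called higher (Cdkn2c and Btg3) and 3 lower (Cdkn1b, Tob1 and Rbl2) in Atg7-KO, with a median of -0.11, and 1 higher (Gadd45g) and 1 lower (Tob1) in S351A. The Atg7-KO counts are near the 19.9% and 18.1% of all genes. Btg3, a relative of Btg2, rose by 2.69 on the log2 scale in Atg7-KO (quasi-likelihood test of edgeR, Benjamini-Hochberg adjusted p = 2.66e-04). Tob1, of the same antiproliferative family, fell by 1.64 in Atg7-KO (adjusted p = 0.00396) from 125 to 40.5 CPM. Rbl2, which encodes the pocket protein p130 of resting cells, fell by 1.10 (adjusted p = 0.0122, range 0.00209 to 0.153), and 5 of 18 alternatives lost that call, among them total library size and leaving out cont. replicate 3 or Atg7-KO replicate 1 or 3. Gadd45b was at 1.54 in Atg7-KO (adjusted p = 0.0553, range 1.89e-04 to 0.201), was called higher under 7 of 18 alternatives, DESeq2 and limma-voom among them, and reached 2.90 without cont. replicate 2. Gadd45g was at -0.11 there (adjusted p = 0.855) and at 1.21 in S351A against cont. (adjusted p = 0.0408, range 0.00233 to 0.154, lost in 7 of 18 alternatives, 6 of them without 1 of the Cre libraries each). In S351A against Atg7-KO Gadd45g was at 252, 159 and 175 CPM against 68.6, 93.4 and 72.7 CPM, with no overlap (7.67% of all genes). That log2 difference of 1.32 was not called (adjusted p = 0.584, range 0.0145 to 1.00), except without the filter (1.26) and with the 6 compared libraries alone (1.34).

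Of 18 tested cyclins, CDKs and cell cycle genes, which p21 acts to restrain, 14 were called higher in Atg7-KO and 13 in S351A, and 0 lower in both, with medians of 1.99 and 1.70. With the replicate block the S351A count was 11. Top2a, the topoisomerase of dividing cells, averaged 2.50 CPM in cont., against 44.0 in Atg7-KO and 39.0 in S351A (4.30, quasi-likelihood test of edgeR, Benjamini-Hochberg adjusted p = 2.21e-06, and 4.13, adjusted p = 9.51e-06). Foxm1, the transcription factor of G2 and mitosis, was at 3.70 (adjusted p = 2.06e-05) and 3.52 (adjusted p = 1.25e-04). In S351A against Atg7-KO, 0 genes of the 6 lists were called. Top2a, Foxm1, Ccnb1 and Aurkb averaged 2.50, 1.42, 0.148 and 0.0889 CPM in cont., under the 5.14 CPM of the filter on low counts. They were tested only through libraries of the Cre groups, as were Psrc1, Sfn and Ak1 of the other targets. Counts called higher in the 6 lists therefore lend no support of their own. The lists were also chosen with earlier results of these data known, so their counts are given as descriptions.

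**Figure D4:**
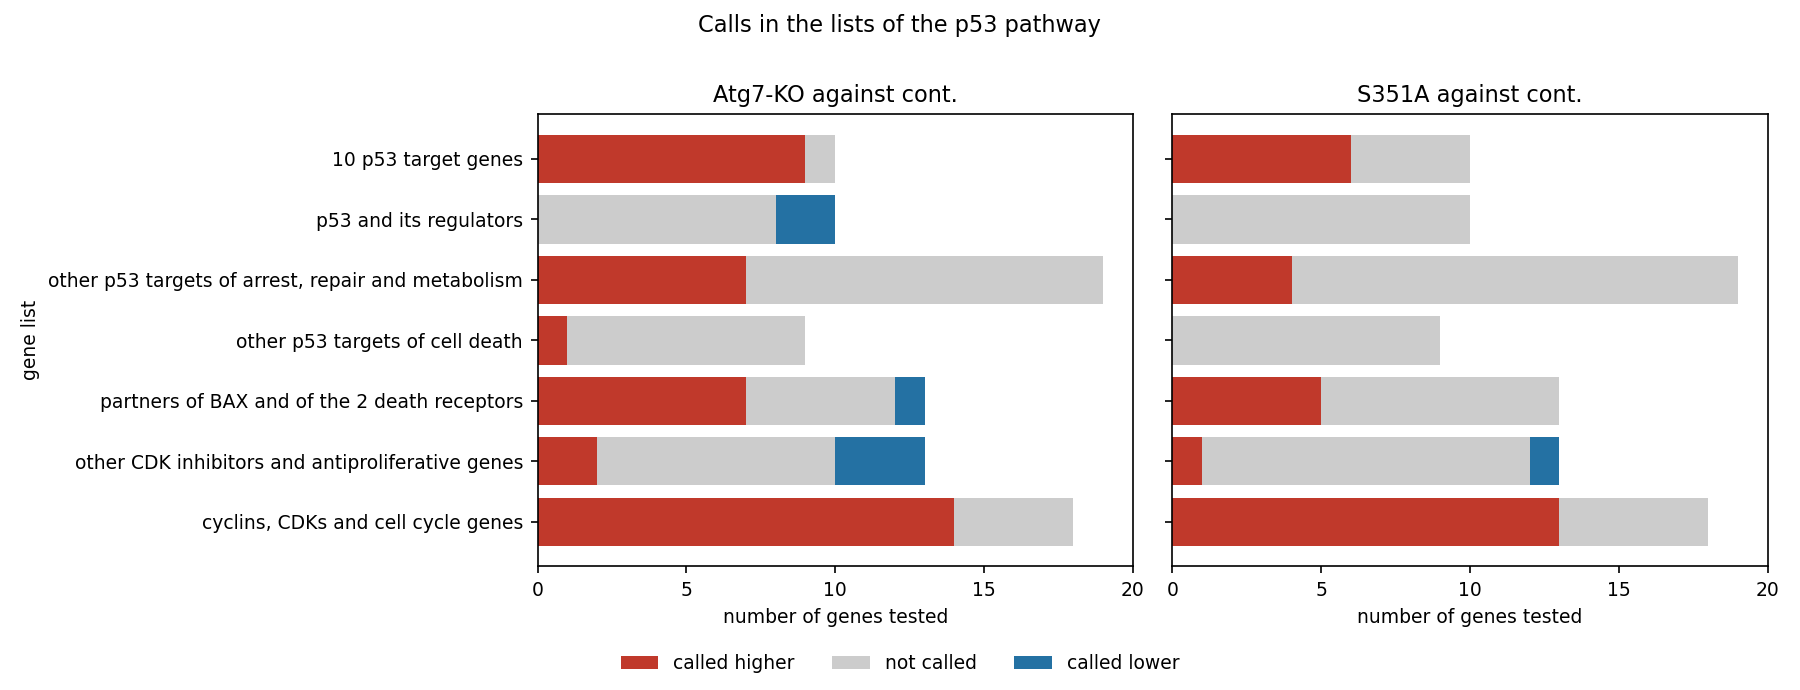
Number of genes called higher, not called and called lower in the 10 p53 target genes and the 6 pathway lists, for Atg7-KO and S351A each against cont. The cell cycle list has the most calls, 14 of 18 and 13 of 18, but some of its genes passed the filter on low counts only through the Cre groups.

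Markers of several other liver cells were also higher in the Cre groups. All 7 tested ductular markers of 9 listed were called higher in both Cre groups, and their summed level was 74.5 to 124 CPM in cont., 874 to 1275 in Atg7-KO and 787 to 1274 in S351A. Stellate cell markers, 6 of 8 called higher in both, summed to 260 to 521, 1235 to 1694 and 1154 to 1638 CPM. Macrophage markers, 6 of 10 called higher in Atg7-KO and 5 in S351A, summed to 217 to 331, 329.9 to 425 and 300.0 to 316 CPM, so the S351A sums lay within the range of cont. Lymphocyte markers (1 of 2 tested called higher in both, 8 listed) summed to 7.20 to 13.3, 21.7 to 29.1 and 13.5 to 27.4 CPM, and endothelial markers (1 of 6 called higher in both, 2 lower in Atg7-KO) to 101 to 192, 132 to 158 and 111 to 151 CPM. The 6 hepatocyte markers summed to 51663 to 105350, 34484 to 40497 and 32990 to 45037 CPM. With 6 and 2 genes tested, the endothelial and lymphocyte counts cannot be set apart from the shares of all genes. The ductular markers Cftr, Epcam, Krt7 and Krt19 averaged 0.0593, 0.589, 1.21 and 1.76 CPM in cont. They passed the filter on low counts only through libraries of the Cre groups. The part of any of these cell types in the changes of the 10 genes was not tested.

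Across the 9 livers the 5 genes whose pattern was most like that of Cdkn1a were Tgtp1, Rad51b, Pla2g7, Abcd2 and Ccnd1, out of 8791 tested genes with a mean of at least 10 CPM. Likeness was the root mean square difference of log2 CPM centred on each gene's mean, which was 0.564 for Tgtp1, 0.613 for Rad51b and Pla2g7, 0.673 for Abcd2 and 0.674 for Ccnd1, against a median of 1.85 over the genes compared. These genes shared the high level of Cdkn1a in cont. replicate 2. Ccnd1, which encodes cyclin D1, was at 17.0, 72.4 and 17.6 CPM in cont. livers, 243, 221 and 223 CPM in Atg7-KO livers, and 347, 298 and 224 CPM in S351A livers. Tgtp1, an interferon-inducible GTPase gene, was at 1.89, 11.9 and 4.09 CPM in cont. livers, 50.4, 51.0 and 63.6 CPM in Atg7-KO livers, and 25.1, 87.5 and 50.2 CPM in S351A livers.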

How the data were processed

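Expected counts per gene were deposited by the authors as 1 table with a column per library. Per the labels and the study's methods, poly(A) RNA was read as 75-base single ends, trimmed with Trim Galore, mapped to mm10 with STAR and counted with RSEM. Versions, annotation and strand setting are not given in the sources used here, and the kit of RNA extraction differs between the labels and the methods. Expected counts (4.40% to 7.75% not whole per library) were rounded. edgeR 4.0.16 in R 4.3.3 kept 11199 genes (filterByExpr, minimum count 10, minimum total 15), scaled libraries by TMM and fitted all 9 libraries in 1 quasi-likelihood model by group, each pair of groups being compared by the F test with Benjamini-Hochberg adjustment. Thresholds (adjusted p under 0.05, fold change over 1.5) are those of the study, which used DESeq2. SE is the log2 fold change divided by the square root of F. Log2 CPM used a prior count of 2, whereas the fitted log2 fold changes took the default prior count of edgeR's fit. Counting error is all that intervals of ratios and floors cover, as the reads carried no molecular identifiers and are not independent. Positions and lengths came from GENCODE M21, promoters from RefSeq. The fit was tested on simulated counts.

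The 10 genes, the lists and the tests were chosen with earlier results of these data known. Named beside the 10 genes were Atg7, Trp53, Mdm4, Cdkn2a, Gadd45a, Gadd45b, Gadd45g, Bbc3, Pmaip1 and Fas, up to 2 called genes per list and direction with the largest change and at least 10 CPM on average in the group where the gene was higher, and the 5 genes most like Cdkn1a. No library was left out. Alternatives were RLE factors, total library size, no filter, DESeq2 1.42.0, limma-voom (limma 3.58.1), the 6 compared libraries alone, a replicate block, sex as a covariate, thinning to the smallest library, other thresholds, and leaving out each library in turn. Sex read from Xist and Y-linked genes gave 2 males among the 3 cont. mice and 1 among the 3 mice of each other group. No 2 libraries were identical, and replicates differed beyond sampling noise (chi-square per degree of freedom 2.45 to 137). The labels name no litter or batch behind the replicate numbers. Deviations of same-numbered libraries from their group means correlated at 0.160 to 0.235 between cont. and S351A, all 3 over 0.1, so there the numbers were taken as pairing the samples, from the data alone. For the other pairs of groups 1 of 3 was over 0.1 each. Libraries with different numbers reached 0.0937 between cont. and S351A and 0.212 between cont. and Atg7-KO. The main fit has no term for a pairing by replicate number, so its p-values come from an unpaired test. The replicate block is the fit that has such a term.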

Additional observations from a re-analysis of the deposited data

How the results depend on the processing

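Every call of the 10 genes against cont. kept its direction under the alternatives. In Atg7-KO against cont. the count of genes called higher was 5 to 9 when 1 library was left out, with 5 without cont. replicate 1, Atg7-KO replicate 2 or Atg7-KO replicate 3, and 7 to 10 under the other tools, scalings and fits at the same fold threshold. After thinning, the 7 called were out of 8 genes tested. With a fold change over 2 in place of 1.5 the count was 6 in Atg7-KO and 6 in S351A, each against cont. In S351A against cont. it was 3 to 6 when 1 library was left out, with 3 without S351A replicate 2, and 2 when the 6 compared libraries were fitted alone, where 7 of the 10 genes could be tested, and 4 to 9 under the others at that fold threshold. The median log2 fold change in Atg7-KO against cont. was 2.27 with total library size and 2.13 with limma-voom, and 1.45 (without cont. replicate 1) to 2.26 (without cont. replicate 2) when 1 library was left out. In S351A against cont. it was 2.16 with total library size, 0.77 with the 6 libraries alone (over 7 genes tested), 1.14 after thinning (over 8 genes, without Phlda3 and Eda2r), and 1.39 to 1.85 when 1 library was left out. Total library size moved the median of all genes by 0.54 and 0.49 in these comparisons.

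Signs changed only for genes that were not called, and the cause was not tested. Cdkn1a in S351A against Atg7-KO was at -0.0046 with total library size, -0.014 without the filter, -0.062 after thinning and -0.24 to 0.28 when 1 library was left out. Leaving out 1 library gave -0.45 to 0.075 for Ccng1, -1.47 to 0.12 for Eda2r and -0.55 to 0.0099 for Zmat3 in that comparison, and, with no change of sign, -0.96 to -0.32 for Phlda3, -0.50 to -0.14 for Bax and -0.59 to -0.20 for Mdm2. Mdm2 in S351A against cont. was at -0.076 without the filter and -0.076 with sex as a covariate, and at -0.16 to 0.29 when 1 library was left out. Over all genes, S351A against Atg7-KO gave 1 call, against 98 without the filter, 40 by DESeq2, 10 with the 6 libraries alone and 3 after thinning.

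Same-numbered libraries deviated together in 3 of 3 pairs between cont. and S351A and in 1 of 3 in both other comparisons. With the replicate block 9, 0 and 6 of the 10 genes were called in Atg7-KO against cont., S351A against Atg7-KO and S351A against cont., and Cdkn1a in S351A against Atg7-KO was at -0.0080. The block changed no call of the 10 genes against cont. In S351A against cont. it moved the cell cycle genes called higher from 13 to 11 and added Sirt1 and Cflar as called lower, calls that some other alternatives also gave. In S351A 3 counts correspond to 3.42 to 3.70 CPM, so changes of Phlda3, Eda2r and Tnfrsf10b there rest on 1 to 17 counts per library.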
